A study of Mus musculus with 11 samples.

Results

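The MHC class I presentation genes are taken here as 10 genes, chosen by symbol from the deposited count table of whole mouse hearts: H2-K1, H2-D1, H2-T23, B2m, Tap1, Tap2, Tapbp, Nlrc5, Calr and Erap1. They are 10 of 54532 genes in the table, and all 10 were among the 14862 genes with enough counts to be tested. Class I molecules carry short peptides from inside the cell to its surface, where CD8 T cells and natural killer cells read them. Peptides cut by the proteasome are pumped into the endoplasmic reticulum by the transporter of Tap1 and Tap2, trimmed by Erap1, and loaded onto a heavy chain paired with B2m with the help of tapasin (Tapbp) and calreticulin (Calr). In the heart, endothelial cells, macrophages and other non-muscle cells are known to carry much of the class I protein, and interferon gamma raises the genes through Nlrc5 and Irf1.

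The study sequenced RNA of whole hearts from C57BL/6 mice, all labelled with a time of 26 weeks, in 3 groups. The group called METTL3 here (4 libraries) carries the label HFD+STZ+AAV METTL3, the group HFD+STZ (4 libraries) carries that label alone, and the chow group (3 libraries) carries neither. HFD commonly abbreviates a diet rich in fat, STZ streptozotocin, which kills pancreatic beta cells, and AAV a viral vector. METTL3 is the enzyme that writes N6-methyladenosine into messenger RNA. No label gives the promoter of the vector or the cells it reaches, whether HFD+STZ mice received a control vector, or whether replicates are separate animals, so a p-value here speaks of the scatter among libraries, part of which may be technical. Mettl3 itself had 6.52 to 10.8 CPM (counts scaled to library size) in METTL3 hearts, 4.39 to 7.82 CPM in HFD+STZ hearts and 3.04 to 7.88 CPM in chow hearts, so the ranges overlapped (log2 fold change of METTL3 over HFD+STZ 0.40, edgeR Benjamini-Hochberg adjusted p of 0.759), and the group rests on its label.

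Libraries held 13900531 to 16952639 counts, of which the mitochondrial genome took 37.7% to 45.5% in METTL3 hearts, 28.6% to 32.5% in HFD+STZ hearts and 9.28% to 27.4% in chow hearts. Chow replicate 3 stood apart: it had the 9.28%, and its counts differed from the other chow libraries with a chi-square per degree of freedom of 279 and 314, against 14.5 to 50.2 for the other pairs of libraries within a group. Across 14862 genes its log2 difference from the other chow libraries fell with gene length (Spearman rho -0.30, a description over genes, which are not replicates). Among the 10 genes this difference ran from 1.78 for H2-D1 and 1.54 for B2m to -0.59 for Erap1 and -1.22 for Nlrc5, the longest of them. Results against chow are therefore given with and without that library.

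The class I genes have well-described promoters, and those of H2-K1, H2-D1 and B2m are shown because these 3 hold the same spaced pair of motifs, at a spacing read from H2-K1. In RefSeq sequence (build GRCm38.p6), TGACG and ATTGG, 20 bases apart, stand within 250 bases before the annotated start; on either strand, 25 of 27025 promoters (0.0925%) hold this pair, H2-M3, another class I gene, among them. TGACG is the half-site that CREB and ATF proteins bind, and ATTGG is the CCAAT box of NF-Y read backwards. Nlrc5 is known to act with such factors at class I promoters. In the following lines the capitals mark the motif pair.
H2-K1, chr17:34000359-34000388, minus strand: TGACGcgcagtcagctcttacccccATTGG
H2-D1, chr17:35262993-35263022, plus strand: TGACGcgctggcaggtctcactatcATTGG
B2m, chr2:122147609-122147638, plus strand: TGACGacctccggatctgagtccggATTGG
The H2-K1 and H2-D1 stretches share 23 of 30 bases. B2m shares 13 of 30 with H2-K1 and 12 of 30 with H2-D1. All of these counts include the capital letters, which match because the stretches were chosen for the motif pair.

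Farther from the start, H2-K1 holds 2 more motifs, shown because they are the classical landing sites for inflammatory signals. A palindromic NF-kB motif, GGGGA and TCCCC with a T between them, stands in 6 of 27025 promoters (0.0222%), those of H2-K1, H2-D1 and H2-Q6 among them, and the motif GAANNGAAA of interferon regulatory factors in 6.34% on either strand. In the next line capitals mark, in order, the NF-kB motif, the fixed letters of the reversed interferon motif, and the pair shown above.
H2-K1, chr17:34000359-34000468, minus strand: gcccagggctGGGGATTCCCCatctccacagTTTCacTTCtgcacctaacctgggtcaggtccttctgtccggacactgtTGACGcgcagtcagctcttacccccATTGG
H2-D1 has the same arrangement, with 99 of these 110 bases identical (90.0%), counting the motif pair on which the 2 stretches were aligned. The H2-D1 window lies inside an annotated exon of another transcript of the gene. Calr, which serves protein folding in the endoplasmic reticulum beyond class I, holds instead the stress element, CCAAT and CCACG 9 bases apart. This element was found in 33 of 27025 promoters (0.122%) on either strand and is shown here reversed, with its fixed letters in capitals.
Calr, chr8:84847065-84847103, minus strand: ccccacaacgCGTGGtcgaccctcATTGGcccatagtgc
These matches describe the letters of the windows and do not show that a factor binds there. The matched windows of H2-T23, Tap1, Tapbp and Erap1 did not hold the spaced pair, the palindrome or the stress element. An annotated exon covers all 250 bases of the Tap1 and Erap1 windows, 199 of the Tapbp window and 154 of the H2-T23 window. Other starts of these genes were not searched, so the absence describes these windows alone.

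Per length of transcript, the 10 genes spanned a wide range of levels. B2m, the small invariant chain of every class I molecule, was at the top with 387 ± 187 CPM per kb (SD over 11 libraries), followed by the heavy chain H2-D1 (74.3 ± 44.5), Calr (59.5 ± 5.86) and the heavy chain H2-K1 (28.3 ± 17.6). Tapbp came next at 19.6 ± 6.25 CPM per kb, then the non-classical heavy chain H2-T23 at 10.8 ± 3.70. The transporter gene Tap2 (5.09 ± 2.97), the peptidase gene Erap1 (4.52 ± 0.790), the other transporter gene Tap1 (1.84 ± 0.749) and the class I transactivator Nlrc5 (0.541 ± 0.285 CPM per kb) were lowest. H2-D1 and Calr, and likewise H2-K1 and Tapbp, and Tap2 and Erap1, differ by less than the spread of the more variable gene in each pair. In raw counts the lowest value was 23, for Nlrc5 in METTL3 replicate 1.

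The heavy chains H2-K1 and H2-D1 present peptides to CD8 T cells. H2-K1 had 60.6, 36.4, 78.5 and 33.1 CPM in METTL3 replicates 1 to 4, against 19.8, 175, 49.3 and 107 CPM in HFD+STZ replicates 1 to 4 and 101, 43.3 and 109 CPM in chow replicates 1 to 3. HFD+STZ held both the lowest and the highest library of the study, 8.86 times apart, and all 3 groups overlapped. H2-D1 had 111, 159, 151 and 145 CPM in METTL3 hearts, against 64.4, 302, 188 and 219 CPM in HFD+STZ hearts and 174, 113 and 483 CPM in chow hearts. The METTL3 libraries stayed within a narrow band, while HFD+STZ replicate 1 and chow replicate 3 marked the ends. On the log2 scale METTL3 hearts stood at -0.75 relative to HFD+STZ hearts for H2-K1 (SE 0.54, edgeR Benjamini-Hochberg adjusted p of 0.712) and at -0.45 for H2-D1 (SE 0.45, adjusted p of 0.812), and neither gene passed the threshold of 0.05 used throughout. Of the 31-base words of H2-K1 transcripts, 22.8% also occur in other genes (11.1% in H2-D1), and of those of H2-D1 26.7% (13.8% in H2-K1), so the split of reads between them is uncertain.

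H2-T23 encodes Qa-1, which displays leader peptides of other class I chains to natural killer receptors. It had 18.3, 33.9, 32.2 and 28.1 CPM in METTL3 hearts, against 20.8, 33.7, 27.4 and 32 CPM in HFD+STZ hearts and 24.6, 32.7 and 59.2 CPM in chow hearts. B2m had 209, 301, 285 and 372 CPM in METTL3 hearts, against 212, 389, 314 and 257 CPM in HFD+STZ hearts and 224, 320.4 and 781 CPM in chow hearts. For both genes METTL3 and HFD+STZ libraries covered the same range and only chow replicate 3 lay outside it. The log2 fold change of METTL3 over HFD+STZ was -0.02 for H2-T23 (95% interval -0.61 to 0.58) and -0.01 for B2m (95% interval -0.75 to 0.73), so changes of either sign within these intervals were not detectable. H2-T23 shares 24.5% of its 31-base words with other genes, while B2m shares none.

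Tap1 and Tap2 form the peptide pump. Tap1 had 6.19, 10.7, 10.3 and 6.54 CPM in METTL3 hearts, against 3.85, 14.8, 6.69 and 17.3 CPM in HFD+STZ hearts and 11.2, 13.7 and 9.18 CPM in chow hearts. Tap2 had 10.7, 15.4, 13.1 and 13.4 CPM in METTL3 hearts, against 11.4, 19.6, 15.3 and 19.5 CPM in HFD+STZ hearts and 19.2, 23.3 and 50.9 CPM in chow hearts. For Tap2 every METTL3 library lay below every chow library. HFD+STZ reached up into the chow range, with replicates 2 and 4 high in both pump genes. Tapbp, the bridge between pump and heavy chain, had 57.7, 40.6, 58.4 and 45.4 CPM in METTL3 hearts, against 49.6, 71.4, 52.3 and 72.3 CPM in HFD+STZ hearts and 67.0, 81.0 and 114 CPM in chow hearts. It too separated METTL3 from chow, and its HFD+STZ libraries overlapped both.

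Nlrc5, the interferon-induced activator of class I promoters, had 1.80, 4.35, 4.53 and 2.15 CPM in METTL3 hearts, against 2.51, 7.30, 3.48 and 8.83 CPM in HFD+STZ hearts and 5.23, 7.69 and 2.65 CPM in chow hearts. HFD+STZ replicates 2 and 4 were again the high ones. Its log2 fold change of METTL3 over HFD+STZ, -0.78 (SE 0.47), was the furthest from 0 among the 10 genes but did not pass (edgeR Benjamini-Hochberg adjusted p of 0.656). Calr had 164, 142, 181 and 186 CPM in METTL3 hearts, against 174, 179, 176 and 185 CPM in HFD+STZ hearts and 166, 191 and 140.3 CPM in chow hearts. Erap1 had 36.7, 25.7, 43.6 and 29 CPM in METTL3 hearts, against 30.2, 34, 30.5 and 34.5 CPM in HFD+STZ hearts and 39.4, 33.9 and 24.2 CPM in chow hearts. These 2 genes varied least, with a highest library 1.36 times the lowest for Calr and 1.80 times for Erap1. Pooled within groups, the SD of log2 CPM was 0.16 for Calr and 0.28 for Erap1, against 0.99 for H2-K1, 0.81 for H2-D1, 0.75 for Nlrc5, 0.68 for Tap1 and a median of 0.41 over all genes tested.

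**Figure D1:**
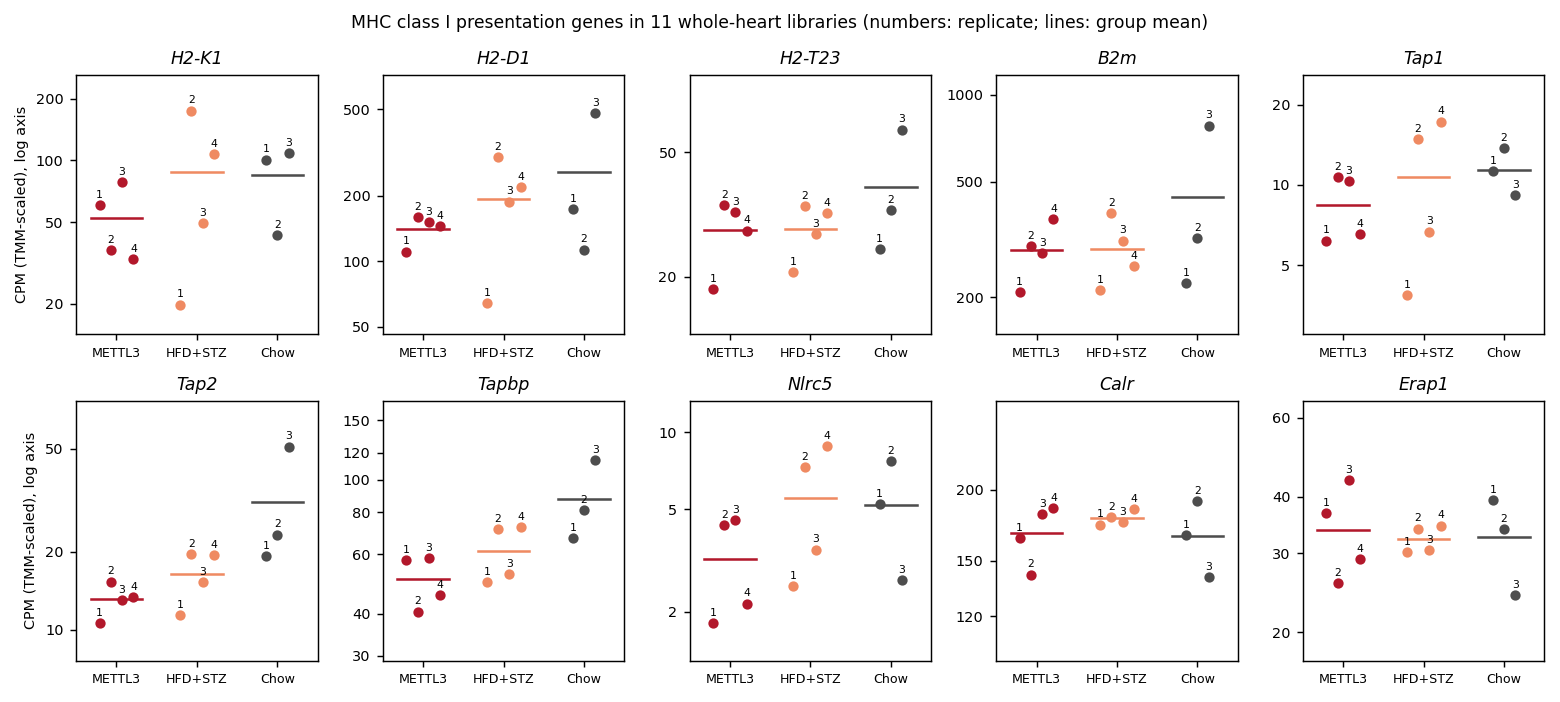
Scaled CPM of each of the 10 genes (log axis) in METTL3, HFD+STZ and chow hearts; points are libraries numbered by replicate and lines are group means. HFD+STZ replicates 2 and 4 lie above replicates 1 and 3 for every gene except B2m, and the chow values of H2-D1, B2m and Tap2 are spread by chow replicate 3.

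Against HFD+STZ hearts, then, no class I gene was called in METTL3 hearts. Of the 10 genes 0 passed, as did 0% of all genes tested by this fit, and none of the 10 had an unadjusted p under 0.05, against 9.06% of all genes. For 0 of the 10 did the METTL3 and HFD+STZ libraries separate, against 9.57% of all genes. Of their log2 fold changes 9 lay below 0, with a median of -0.30, where the median of all genes tested was -0.004. DESeq2, which called 1.29% of all genes in this comparison, and limma voom, which called 2.66%, called none of the 10. The numbers in the labels' descriptions fall into codes 25 to 33 and 78 to 98; within the lower range, with 3 libraries a group, H2-K1 had a log2 fold change of -0.93, Nlrc5 -0.89, H2-D1 -0.76 and Tap1 -0.52, and none passed. Without HFD+STZ replicate 1 the median over the 10 genes was -0.43, and without HFD+STZ replicate 2 or 4 it was -0.14.

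HFD+STZ over chow gave 0 of 10 calls, against 0.168% of all genes tested. Tap2 (log2 fold change -0.92, SE 0.31, edgeR Benjamini-Hochberg adjusted p of 0.290) and Tapbp (-0.51, SE 0.22, adjusted p of 0.392) were the 2 with an unadjusted p under 0.05, which 12.1% of all genes reached; for none of the 10 did the groups separate, against 10.4% of all genes. B2m (-0.59, SE 0.37), H2-T23 (-0.45, SE 0.30) and H2-D1 (-0.41, SE 0.49) had lower means in HFD+STZ, and H2-K1 (0.06), Nlrc5 (0.09), Tap1 (-0.09), Calr (0.10) and Erap1 (-0.01) lay near 0. Without chow replicate 3 the values were 0.11 for B2m, -0.01 for H2-T23, 0.44 for H2-D1, -0.37 for Tap2 and -0.22 for Nlrc5. The sign of B2m, H2-D1 and Nlrc5 thus turned when that library was left out. DESeq2 and limma voom called 0 of the 10 as well, against 2.07% and 13.1% of all genes by these tools in that order.

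In METTL3 over chow, 1 of the 10 genes passed, and it fell: Tap2, with 13.1 ± 1.93 CPM in METTL3 hearts (SD, n = 4) and 31.2 ± 17.2 CPM in chow hearts (SD, n = 3), a log2 fold change of -1.25 (SE 0.31, edgeR Benjamini-Hochberg adjusted p of 0.0487). Of all genes tested, 3.2% passed in this comparison and 1.37% passed downwards. Tapbp had 50.6 ± 8.92 CPM in METTL3 hearts and 87.4 ± 24.3 CPM in chow hearts, with a log2 fold change of -0.79 (SE 0.22, adjusted p of 0.0716), and did not pass. These were the 2 of 10 with an unadjusted p under 0.05, against 21.7% of all genes, and also the 2 of 10 whose groups did not overlap, against 18.7% of all genes in either direction and 8.26% downwards. The other values were -0.86 for H2-D1, -0.70 for H2-K1, -0.69 for Nlrc5, -0.60 for B2m, -0.46 for H2-T23, -0.43 for Tap1, 0.06 for Erap1 and 0.02 for Calr, and the median over the 10 was -0.65. Leaving out chow replicate 3 gave -0.03 for H2-D1, -0.47 for H2-K1, -1.02 for Nlrc5, 0.09 for B2m, -0.04 for H2-T23, -0.57 for Tap1, -0.12 for Erap1, -0.10 for Calr and -0.56 for Tapbp, with a median over the 10 of -0.30, so the sign of B2m, Erap1 and Calr turned and H2-D1 and H2-T23 moved close to 0. Both comparisons against chow share the chow libraries.

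The Tap2 call was a narrow one. Without chow replicate 3 its log2 fold change was -0.71 (edgeR Benjamini-Hochberg adjusted p of 0.0808), and it passed without chow replicate 1 or without HFD+STZ replicate 1 but not when any of the other libraries was left out, over which its adjusted p ranged from 0.0228 to 0.119. DESeq2 and limma voom each called Tap2 and Tapbp, 2 of the 10, against 10.2% of all genes by DESeq2 and 20.7% by limma voom, and a fit with DESeq2 size factors or with mitochondrial counts left out of the scaling called neither. All chow libraries lie in the upper code range with METTL3 replicate 4 and HFD+STZ replicate 1, so within that range METTL3 is represented by 1 library, whose 13.4 CPM of Tap2 lay below the 19.2, 23.3 and 50.9 CPM of the chow libraries. Adding code range to the model gave Tap2 a value of -1.47 on the log2 scale (SE 0.42, edgeR Benjamini-Hochberg adjusted p of 0.182) and did not pass. In whole tissue, fewer cells of a type and less RNA per cell cannot be told apart either. Beside this result, the 10 macrophage markers summed to 196 to 340 CPM in METTL3 hearts, 288 to 683 CPM in HFD+STZ hearts and 460 to 898 CPM in chow hearts. All 10 were below chow in METTL3 hearts by fold change (9 without chow replicate 3), and by edgeR 3 passed with and without that library (C1qa, C1qc and Csf1r). In METTL3 over chow DESeq2 called 6 of the 10 lower and limma voom 7, against 10.2% and 20.7% of all genes. In HFD+STZ over chow DESeq2 called 0 and limma voom 5 lower, against 2.07% and 13.1% of all genes. In METTL3 over HFD+STZ both tools called C1qa lower, against 1.29% and 2.66% of all genes. These shares of all genes by DESeq2 and limma voom count both directions. None of the 10 was at 0 in any library, and the part of these markers in the class I values was not tested. The 10 endothelial markers summed to 1709 to 2222 CPM in METTL3 hearts, 1319 to 1991 CPM in HFD+STZ hearts and 1524 to 1686 CPM in chow hearts, with 0 passing in any comparison by edgeR; DESeq2 and limma voom called Pecam1 higher in METTL3 than in chow hearts, and limma voom called Emcn higher in METTL3 than in HFD+STZ hearts. The 12 markers of cytotoxic lymphocytes, the cells that read class I, were too low to test, with 0 to 14 counts in all per METTL3 library, 9 to 27 per HFD+STZ library and 30 to 36 per chow library.

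**Figure D2:**
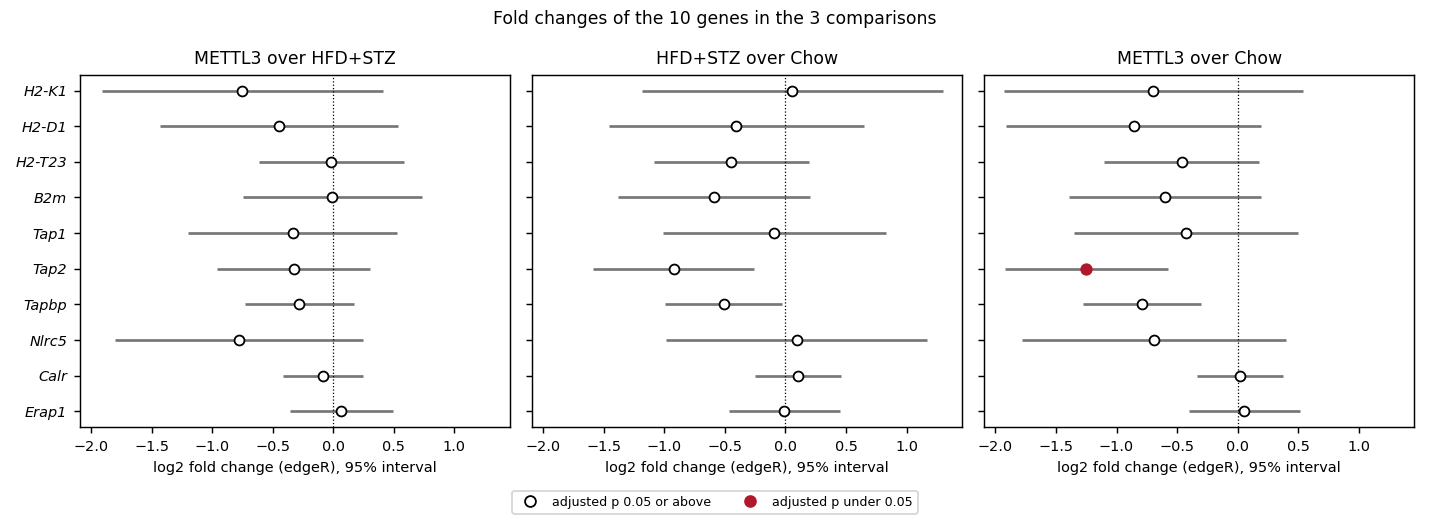
Log2 fold changes from edgeR with 95% intervals for the 10 genes in METTL3 over HFD+STZ, HFD+STZ over chow and METTL3 over chow; filled points have a Benjamini-Hochberg adjusted p under 0.05. Tap2 in METTL3 over chow (-1.25) is the only filled point, and the intervals of H2-K1 and Nlrc5 are the widest while those of Calr and Erap1 are the narrowest.

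How the genes moved together across the 11 libraries was examined for all 45 pairs, with permutation p adjusted over the 45. Of these, 8 pairs passed by Pearson's r, all positive, and 1 by Spearman's rho. That pair was Tap1 with its known activator Nlrc5 (r = 0.87, permutation adjusted p of 0.0155; rho = 0.95, permutation adjusted p of 0.00225). Without the 2 libraries farthest from the median of Tap1, HFD+STZ replicates 1 and 4, r was 0.92, and after subtracting group means it was 0.91. B2m and H2-T23 had r = 0.90 (permutation adjusted p of 0.0155; rho = 0.77, permutation adjusted p of 0.100), and r was 0.66 without chow replicate 3 and METTL3 replicate 1, the 2 farthest. H2-K1 and H2-D1 had r = 0.78 (permutation adjusted p of 0.0343; rho = 0.79), and r was 0.59 without the 2 farthest libraries. Of the 8 pairs, 4 kept r above 0.5 without their 2 farthest libraries.

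Chow replicate 3 decides much of this pattern. Tap2 and Nlrc5 had r = 0.28 over 11 libraries and 0.90 without chow replicate 3, where Tap2 was at its highest and Nlrc5 low. Over all 45 pairs, r was above 0 for 33 with that library and for 43 without it. Set against the mean of the other 9 genes, in SD units of log2 CPM, r without chow replicate 3 was 0.88 for Tap1, 0.83 for Nlrc5, 0.78 for Tap2, 0.75 for H2-K1, 0.72 for Tapbp, 0.69 for H2-D1 and 0.62 for H2-T23. It was 0.36 for B2m, 0.33 for Calr and 0.32 for Erap1. The libraries share depth and scaling with each other, and these correlations to the mean are descriptions without a test.

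**Figure D3:**
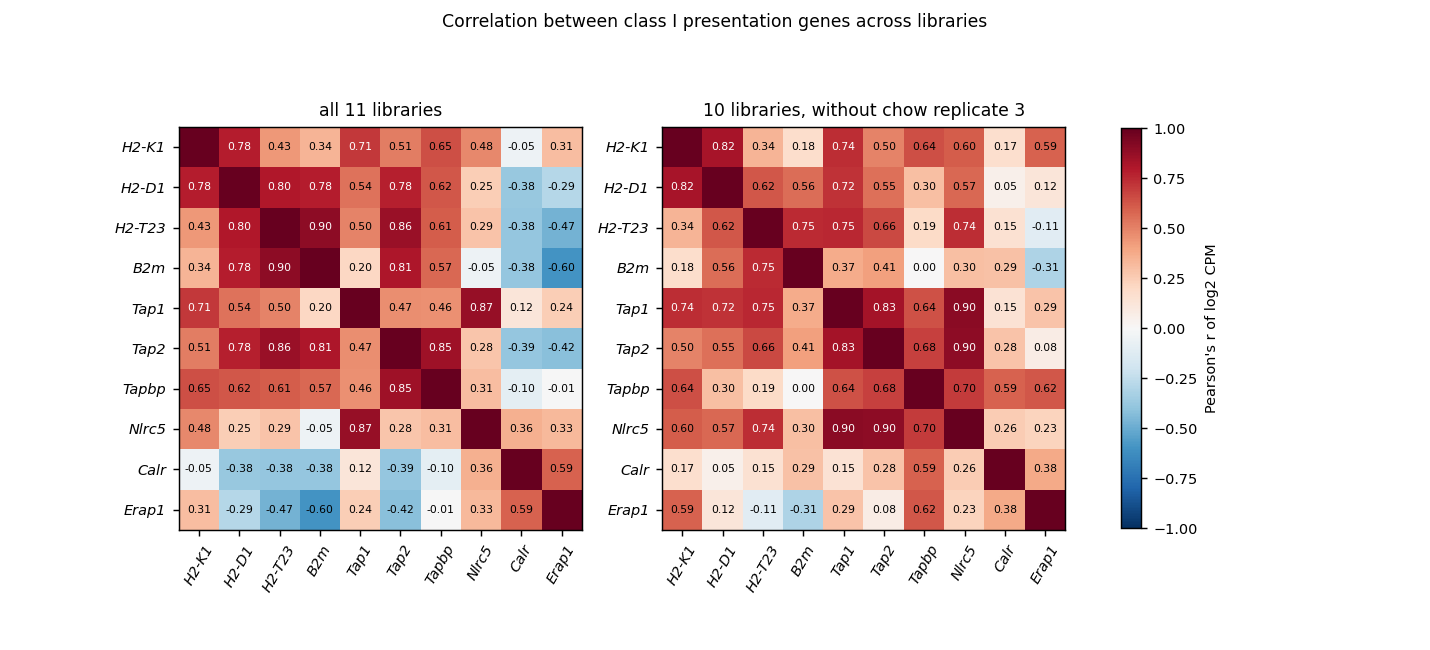
Pearson's r of log2 CPM between each pair of the 10 genes, over all 11 libraries (left) and without chow replicate 3 (right), from -1 (blue) to 1 (red). Without that library the pairs among Tap1, Tap2 and Nlrc5 are the deepest red, with Tap1 to Nlrc5 and Tap2 to Nlrc5 both at 0.90. Tapbp to H2-D1 (0.30), Tapbp to H2-T23 (0.19) and H2-K1 to H2-T23 (0.34) are pale. Calr, Erap1 and B2m are paler in most pairs, but B2m to H2-T23 is at 0.75 and Tapbp to Erap1 at 0.62.

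The genes most like the 10 were taken as the 5 named genes with the highest Pearson's r to their mean across 11 libraries. They were H2-Q6 (r = 0.95) and H2-Q4 (0.91), both class I heavy chains of the Q region, then Slc39a3 (0.90), a zinc transporter gene, Dnajb2 (0.89), a co-chaperone gene, and Zcchc3 (0.89), a zinc finger gene. H2-Q6 had 4.70, 9.11, 10.4 and 10.8 CPM in METTL3 hearts, against 3.96, 47.4, 13.9 and 30.6 CPM in HFD+STZ hearts and 15.7, 23.2 and 48.0 CPM in chow hearts. As for H2-K1, HFD+STZ held both extremes or nearly so. Unlike for H2-K1, all METTL3 libraries were below all chow libraries for H2-Q6.

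Other class I heavy chains were read from a list of 15, of which 12 had enough counts. None passed in any of the 3 comparisons by edgeR. In METTL3 over HFD+STZ 5 of the 12 had an unadjusted p under 0.05, against 9.06% of all genes, all with negative fold changes, led by Fcgrt (-0.48, SE 0.17), the class I-like receptor that recycles IgG and albumin, and H2-T22 (-0.74, SE 0.26); the edgeR Benjamini-Hochberg adjusted p was 0.447 for both. The others were H2-Q4 (-0.78), H2-Q6 (-1.45) and H2-Q7 (-1.74). Fcgrt had 51.3, 49.3, 48.2 and 48.0 CPM in METTL3 hearts, against 67.6, 75.6, 60.7 and 69.8 CPM in HFD+STZ hearts and 60.3, 77.8 and 103 CPM in chow hearts. Every METTL3 library was below every other library, with an adjusted p of 0.0530 against chow. For the 12 genes the median log2 fold change was -0.24 in METTL3 over HFD+STZ, -0.18 in HFD+STZ over chow and -0.57 in METTL3 over chow. When chow replicate 3 was left out, 13 had enough counts and the median was 0.13 in HFD+STZ over chow and -0.23 in METTL3 over chow. In METTL3 over chow DESeq2 called 3 of the 12 lower (H2-Q6, H2-T22 and Fcgrt) and limma voom 1 (Fcgrt). Of all genes these tools called 10.2% and 20.7% there, in either direction. For METTL3 over HFD+STZ limma voom called H2-T22 lower, against 2.66% of all genes in either direction. Without chow replicate 3 and HFD+STZ replicate 1 together, edgeR called 4 lower in METTL3 over HFD+STZ: H2-Q4, H2-Q6, H2-Q7 and H2-T22. That fit called 2.68% of all genes in either direction. HFD+STZ replicate 1 had the lowest value of its group for H2-Q6 and for 10 of the 10 genes. These 4 calls rest on leaving it out together with chow replicate 3.

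Peptides for class I come from the proteasome, in which interferon swaps the catalytic subunits Psmb5, Psmb6 and Psmb7 for Psmb8, Psmb9 and Psmb10. The list of Psmb8, Psmb9, Psmb10 and the activator genes Psme1 and Psme2 had 2 of 5 called lower in METTL3 over chow, against 1.37% of all genes. Psmb8 had 2.59, 6.10, 4.38 and 4.39 CPM in METTL3 hearts, against 4.97, 10.6, 4.74 and 10.7 CPM in HFD+STZ hearts and 9.33, 10.5 and 27.6 CPM in chow hearts. Psmb10 had 21.2, 32.4, 26.0 and 20.9 CPM in METTL3 hearts, against 27.5, 31.4, 29.8 and 35.4 CPM in HFD+STZ hearts and 36.1, 46.8 and 140.4 CPM in chow hearts. Both separated METTL3 from chow, at log2 fold changes of -1.86 (SE 0.44, edgeR Benjamini-Hochberg adjusted p of 0.0438) and -1.57 (SE 0.37, adjusted p of 0.0435). Without chow replicate 3 Psmb8 stood at -1.20 (edgeR Benjamini-Hochberg adjusted p of 0.0763) and did not pass, while Psmb10 stood at -0.73 (adjusted p of 0.0454) and did; the median of the 5 was -1.77 with that library and -0.73 without it. In METTL3 over chow DESeq2 called 4 of the 5 lower and limma voom 3, Psmb8 and Psmb10 among them by both. Of all genes, DESeq2 called 10.2% and limma voom 20.7% in that comparison, in either direction. By edgeR 0 of the 5 passed in METTL3 over HFD+STZ, with 0 at an unadjusted p under 0.05, and 0 in HFD+STZ over chow, with 4 at an unadjusted p under 0.05 against 12.1% of all genes; limma voom called Psmb10 in HFD+STZ over chow, and DESeq2 called none in these comparisons. The 3 constitutive subunits had 0 calls by edgeR, DESeq2 or limma voom, and 0 at an unadjusted p under 0.05.

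A ratio of 2 genes within a library does not depend on how libraries are scaled. Of 4 such ratios, tested in 3 comparisons by two-sided exact permutation tests, the smallest p is 0.0286 for 4 libraries against 4 and 0.0571 for 4 against 3. After adjustment over the 12 tests the smallest value these designs can give is 0.0571, so none could pass, and the ratios are given for their sizes and overlap. Psmb8 to Psmb5 was 0.0589, 0.0599, 0.0698 and 0.0738 in METTL3 hearts, against 0.0925, 0.151, 0.0940 and 0.189 in HFD+STZ hearts and 0.200, 0.189 and 0.170 in chow hearts. METTL3 lay below all other libraries, and chow replicate 3 did not stand apart from the other chow libraries in this ratio. The log2 difference was -0.94 for METTL3 minus HFD+STZ (exact permutation p of 0.0286, 0.229 after adjustment) and -1.51 for METTL3 minus chow (exact permutation p of 0.0571, 0.229 after adjustment). Psmb5 shares 71.7% of its 31-base words with pseudogenes, so its counts are uncertain. The matching ratios of the other subunit pairs, chosen after the values were seen and not tested, were 0.0419 to 0.0654 in METTL3 hearts, 0.0529 to 0.109 in HFD+STZ hearts and 0.129 to 0.154 in chow hearts for Psmb9 to Psmb6. For Psmb10 to Psmb7 they were 0.312 to 0.443 in METTL3 hearts, 0.365 to 0.440 in HFD+STZ hearts and 0.521 to 1.92 in chow hearts. Neither separated METTL3 from HFD+STZ, and both separated METTL3 from chow.

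The other tested ratios compared genes that work as partners. Calr to Canx, 2 lectin chaperones of which Canx (calnexin) acts earlier on the heavy chain, was 0.713 to 0.83 in METTL3 hearts, 0.816 to 1.05 in HFD+STZ hearts and 0.720 to 1.09 in chow hearts. Its log2 difference was -0.30 for METTL3 minus HFD+STZ (exact permutation p of 0.0571, 0.229 after adjustment), and the groups overlapped. H2-K1 to B2m (log2 difference -0.42) and Tap1 to Tap2 (0.16) overlapped widely between METTL3 and HFD+STZ. H2-K1 to H2-D1, chosen after the values were seen and not tested, was 0.548, 0.229, 0.520 and 0.228 in METTL3 hearts, against 0.307, 0.580, 0.262 and 0.489 in HFD+STZ hearts and 0.582, 0.384 and 0.226 in chow hearts. Each group thus held low and high libraries, with chow replicate 2 between them, and the 3 groups overlapped.

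**Figure D4:**
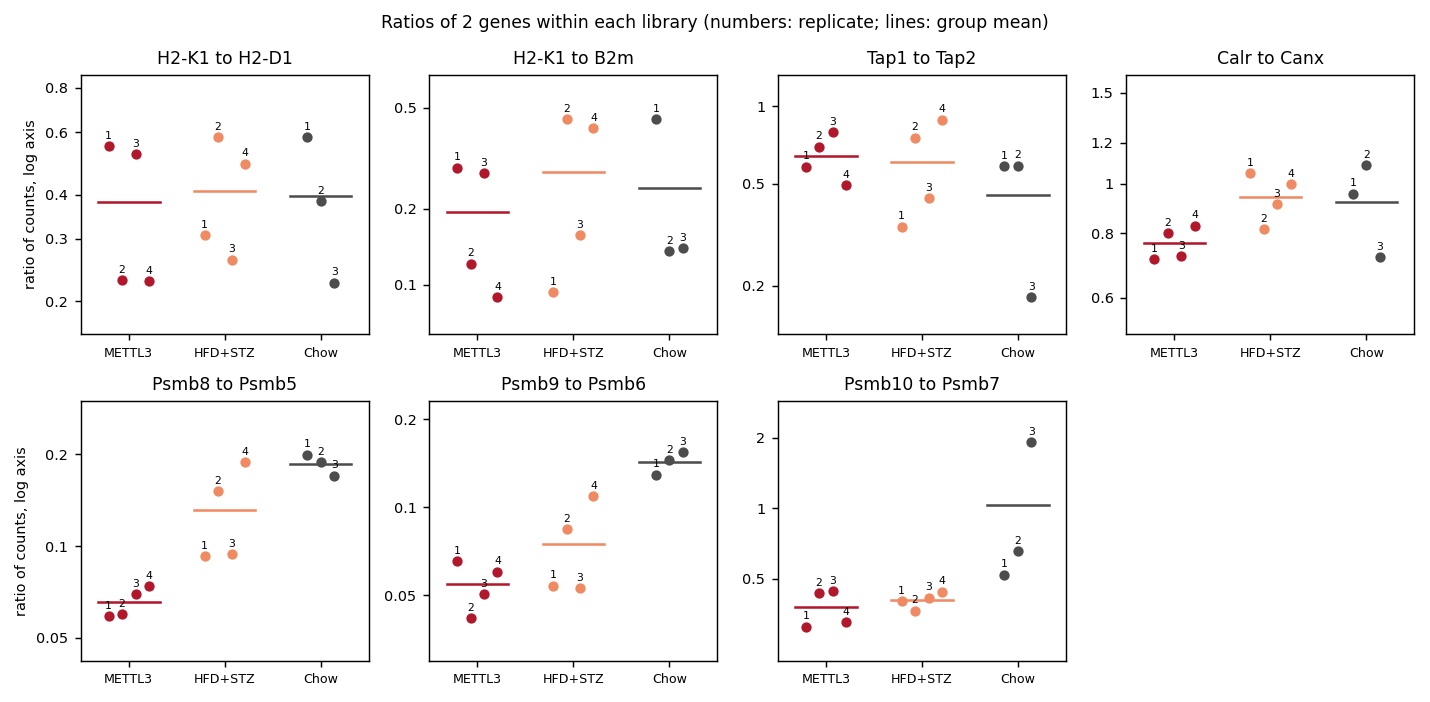
Ratios of the counts of 2 genes within each library (log axes) in METTL3, HFD+STZ and chow hearts; points are libraries numbered by replicate and lines are group means. Psmb8 to Psmb5 is at most 0.0738 in METTL3 libraries and at least 0.0925 in the other libraries, whereas H2-K1 to H2-D1 has low and high libraries within each group.

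The signalling genes upstream of class I were a list of 10 around interferon gamma, 9 of them tested. Irf1, a transcription factor that interferon gamma induces, fell in METTL3 over chow, with 17.0 ± 1.5 CPM in METTL3 hearts (SD, n = 4) and 34.4 ± 9.85 CPM in chow hearts (SD, n = 3), a log2 fold change of -1.02 (SE 0.22, edgeR Benjamini-Hochberg adjusted p of 0.0357). It was still called without chow replicate 3, at -0.78 (edgeR Benjamini-Hochberg adjusted p of 0.0436), but not without any 1 of the METTL3 libraries, chow replicate 2 or HFD+STZ replicates 2 or 4, with adjusted p of up to 0.0939. In METTL3 over HFD+STZ Irf8, a factor of the same family active in macrophages, had 4.28 ± 0.407 CPM in METTL3 hearts and 6.78 ± 0.923 CPM in HFD+STZ hearts (SD, n = 4 each); its groups did not overlap, but it did not pass (-0.66, SE 0.22, edgeR Benjamini-Hochberg adjusted p of 0.418). Ifngr1, a chain of the interferon gamma receptor named here after its values were seen, had fold changes above 0, with 79.5 to 90.0 CPM in METTL3 hearts, 60.9 to 78 CPM in HFD+STZ hearts and 37.1 to 62.3 CPM in chow hearts. Its METTL3 libraries lay above all others, but it did not pass in METTL3 over HFD+STZ (0.36, SE 0.17, edgeR Benjamini-Hochberg adjusted p of 0.565) or in METTL3 over chow (0.73, SE 0.19, adjusted p of 0.0563). In METTL3 over chow DESeq2 called Ifngr1 higher and Irf1 and Irf8 lower, and limma voom called 1 of the list higher and 4 lower, Ifngr1, Irf1 and Irf8 among them. Of all genes, DESeq2 called 10.2% and limma voom 20.7% there in either direction, and edgeR called 1.37% lower. Ifng itself was too low to test. The 8 promoter-binding factors listed, among them Rfx5, Rfxap, Rfxank and the NF-Y genes, had 0 calls by edgeR and DESeq2 in the 3 comparisons and 1 by limma voom (Nfya, lower in METTL3 than in chow), with medians of 0.004 in METTL3 over HFD+STZ, -0.13 in HFD+STZ over chow (-0.04 without chow replicate 3) and 0.03 in METTL3 over chow (0.06 without it).

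The remaining loading partners (Canx, Pdia3, Tapbpl, Uggt1 and Lnpep) had 0 of 5 calls in each comparison by edgeR, with medians of 0.20, 0.02 and -0.03 in the order METTL3 over HFD+STZ, HFD+STZ over chow and METTL3 over chow; without chow replicate 3 the medians against chow were -0.02 in HFD+STZ and 0.24 in METTL3. No gene of this list had an unadjusted p under 0.05, and DESeq2 called 0. In METTL3 over chow limma voom called Canx, Tapbpl and Lnpep, 2 of them higher and 1 lower, against 20.7% of all genes in either direction. Pdia3, the oxidoreductase of the loading complex, had 0.28 (SE 0.28) in METTL3 over HFD+STZ. Of 10 other chaperones of the endoplasmic reticulum, 1 fell in METTL3 over chow: Creld2, a stress-induced chaperone, with 5.88 ± 1.21 CPM in METTL3 hearts and 13.3 ± 6.07 CPM in chow hearts (log2 fold change -1.18, SE 0.29, edgeR Benjamini-Hochberg adjusted p of 0.0465). Without chow replicate 3 it stood at -0.75 (adjusted p of 0.0776), and it was called only without chow replicate 1 when libraries were left out singly. Of all genes, edgeR called 1.37% lower in METTL3 over chow. DESeq2 called 2 of the 10 chaperones lower there (Creld2 and Dnajb11), against 10.2% of all genes in either direction. From the same list limma voom called 2 higher and 2 lower (Hspa5, Creld2, Dnajb11 and Dnajc3), against 20.7% of all genes in either direction.

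**Figure D5:**
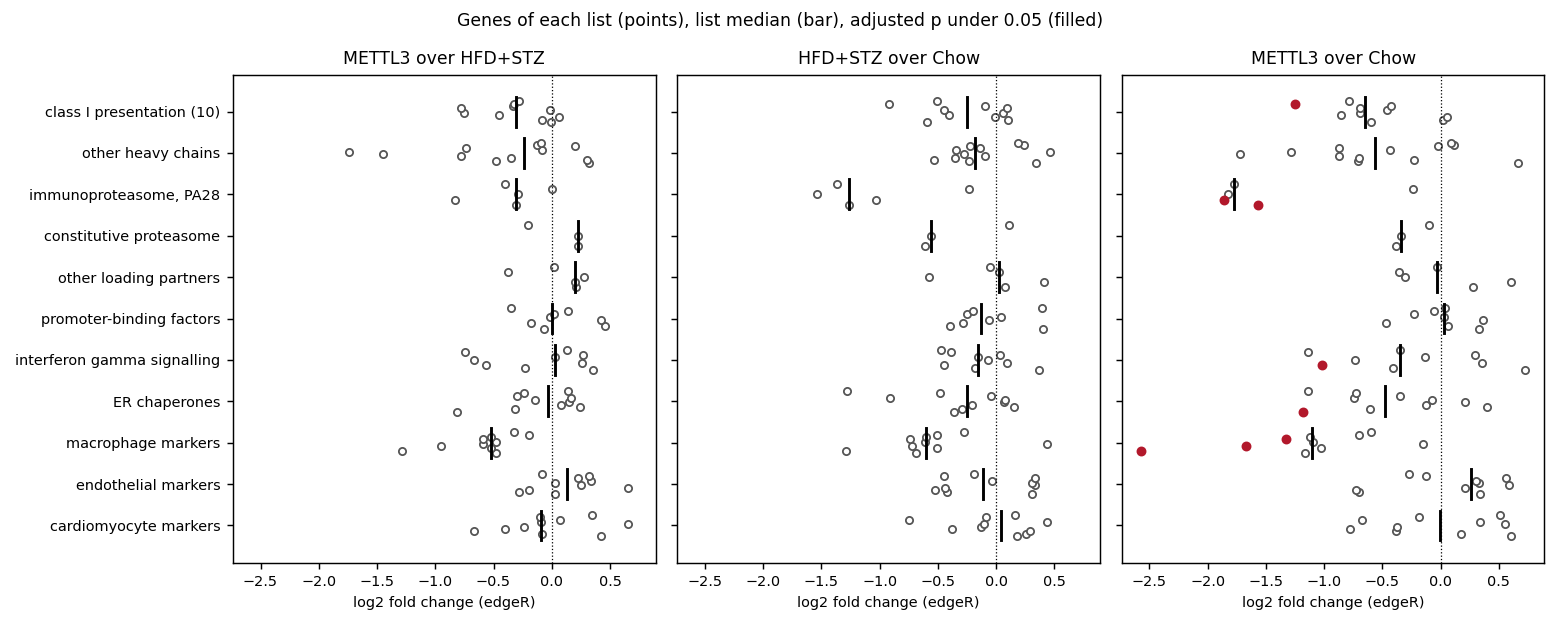
Log2 fold changes of the tested genes of each list (points, one per gene) with the list median (bar) in METTL3 over HFD+STZ, HFD+STZ over chow and METTL3 over chow; filled points have a Benjamini-Hochberg adjusted p under 0.05 by edgeR. Filled points occur in METTL3 over chow alone: Tap2, Psmb8, Psmb10, Irf1, Creld2, C1qa, C1qc and Csf1r, all below 0.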

How the data were processed

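The authors' deposited file holds whole-number counts per gene for 11 libraries of whole mouse heart. Per the labels' protocols, Trizol was used for extraction, RiboZero for removing ribosomal RNA and an NEB kit for the libraries. FastQC, Salmon and mm10 are named, without versions, in the submitters' processing notes. The annotation release and strand setting were not given in the sources used here. Tap1, Tap2, Tapbp, Nlrc5 and Erap1 overlap exons of neighbouring genes, so reads there can be assigned either way.

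Groups come from the sample titles. Counts were fitted with edgeR 4.0.16 (R 4.3.3; TMM scaling, a minimum count of 10 and total of 15, quasi-likelihood test) over all 11 libraries with 3 group means, and p-values were adjusted (Benjamini-Hochberg) over 14862 genes at a threshold of 0.05. CPM per kb uses the deposited gene length, which equals that of GENCODE M21 for 8 of the 10 genes. Ratios add 0.5 to each count; exact tests used SciPy 1.17.1, and correlations 100000 permutations. Intervals cover only counting error and the model's estimate of scatter among libraries. The script was tested on simulated data. Promoters come from RefSeq; Tap2 and Nlrc5 have no entry there.

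The 10 genes, the other lists and the tests were chosen with earlier results of these data known. Named from each other list are up to 4 genes past the threshold by p or, where none passed, the 2 with the smallest p; the text names fewer. H2-Q7, Psmb7, Psmb9, Ifngr1 and Pdia3, and H2-Q4 and H2-Q6 outside their correlations, were named after their values were seen. Alternatives were DESeq2 1.42.0, limma voom 3.58.1 with sample quality weights, other scalings, filters and designs, offsets for gene length and GC content (loess span 0.5), and leaving out each library.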

Additional observations from a re-analysis of the deposited data

How the results depend on the processing

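The Tap2 call in METTL3 over chow changed with many settings: of the 10 genes, DESeq2, limma voom and a fit with no filter on low counts called 2, and DESeq2 size factors, scaling without mitochondrial counts, only the groups compared, the replicate block, the code range as a covariate and length and GC offsets called 0 (0 to 2 when 1 library was left out). In the other comparisons every alternative called 0. The replicate numbers did not pair the samples: same-numbered libraries correlated at -0.23 to 0.16, and block results are given only here. Causes of the changes were not tested.

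Genes past the threshold in METTL3 over HFD+STZ numbered 139 with DESeq2, 395 with limma voom, 403 without chow replicate 3 and HFD+STZ replicate 1 together, and 0 when any 1 library was left out. In HFD+STZ over chow they numbered 307 (DESeq2), 1954 (limma voom), 190 (no filter), 0 (only the groups compared), 2 (replicate block), 1 (code range), 63 (length and GC offsets) and 493 (without both libraries), and 1 to 215 with 1 library left out. In METTL3 over chow they numbered 1509, 3078, 747, 54, 5, 1, 253 and 1258 in that order of settings, and 34 to 750. The median over the 10 genes was -0.77 in HFD+STZ over chow and -1.12 in METTL3 over chow with the code range, and -0.18 in METTL3 over chow with limma voom; with 1 library left out it ran from -0.43 to -0.14 in METTL3 over HFD+STZ, -0.53 to -0.046 in HFD+STZ over chow and -0.73 to -0.30 in METTL3 over chow.

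Signs that turned belong to genes that were not called. With limma voom, HFD+STZ over chow was 0.030 for B2m, -0.044 for Calr, 0.77 for H2-D1 and -0.25 for Nlrc5, and METTL3 over chow was -0.12 for Calr, 0.12 for H2-D1 and 0.031 for H2-K1. Without chow replicate 3 and HFD+STZ replicate 1 together, HFD+STZ over chow was 0.23 for B2m, 0.72 for H2-D1, 0.12 for H2-T23 and 0.056 for Tap1, and METTL3 over chow was 0.089 for B2m, -0.096 for Calr and -0.12 for Erap1. With the replicate block, HFD+STZ over chow was 0.018 for Erap1 and -0.096 for Nlrc5, and METTL3 over chow -0.011 for Calr. With the code range, HFD+STZ over chow was -1.34 for H2-K1 and -0.79 for Nlrc5, METTL3 over chow -0.10 for Erap1 and METTL3 over HFD+STZ 0.0028 for H2-T23. With length and GC offsets, Erap1 was -0.23 in METTL3 over HFD+STZ and -0.28 in METTL3 over chow, and H2-T23 0.17 in METTL3 over HFD+STZ; with no filter Erap1 was 0.0066 in HFD+STZ over chow.

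With 1 library left out, METTL3 over HFD+STZ ran from -0.15 to 0.16 for B2m, -0.15 to 0.14 for H2-T23 and -0.081 to 0.18 for Erap1. HFD+STZ over chow ran from -0.89 to 0.11 for B2m, -0.18 to 0.16 for Erap1, -0.74 to 0.44 for H2-D1, -0.53 to 0.39 for H2-K1, -0.22 to 0.51 for Nlrc5, -0.42 to 0.19 for Tap1 and -0.67 to -0.0055 for H2-T23. METTL3 over chow ran from -0.91 to 0.088 for B2m, -0.097 to 0.14 for Calr and -0.12 to 0.21 for Erap1. The log2 ratio of H2-K1 to B2m ran from -0.16 to 0.74 in HFD+STZ over chow and -0.55 to 0.32 in METTL3 over chow, that of Calr to Canx from -0.12 to 0.18 in HFD+STZ over chow, and that of Tap1 to Tap2 from -0.060 to 0.79 in HFD+STZ over chow and -0.078 to 0.38 in METTL3 over HFD+STZ. Adding 2 in place of 0.5 to the counts turned no ratio. At 23 to 145 counts per library, Nlrc5 is the gene whose depth limits precision most.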

Other observations

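The libraries of a group differed in H2-K1. In METTL3 hearts its levels paired the libraries as their counts over all genes did, and so did those of Tapbp and Erap1. B2m and Tap2 split the libraries into the same pairs in the other direction, with replicates 1 and 3 low. B2m had 209 and 285 CPM in replicates 1 and 3, against 301 and 372 CPM in replicates 2 and 4. Tap2 had 10.7 and 13.1 CPM, against 15.4 and 13.4 CPM. The levels of H2-D1, H2-T23 and Calr did not follow these pairs, nor did those of Tap1 and Nlrc5 (replicates 2 and 3 high). Over all genes, METTL3 replicates 1 and 3 differed with a chi-square per degree of freedom of 17.6 and replicates 2 and 4 with 14.5, against 35.1 to 45.4 for the other METTL3 pairs. Replicates 1 and 3 had 60.6 and 78.5 CPM of H2-K1 and ratios of H2-K1 to H2-D1 of 0.548 and 0.520, and replicates 2 and 4 had 36.4 and 33.1 CPM and ratios of 0.229 and 0.228. Tapbp had 57.7 and 58.4 CPM in replicates 1 and 3, against 40.6 and 45.4 CPM in replicates 2 and 4. Erap1 had 36.7 and 43.6 CPM in replicates 1 and 3, against 25.7 and 29 CPM in replicates 2 and 4. In HFD+STZ hearts the pairing did not recur: replicates 2 and 4 lay above replicates 1 and 3 for each of the 10 genes except B2m, while replicate 3 was near both over all genes. Replicate 1 differed from the other HFD+STZ libraries with 41.8 to 50.2, against 17.5 to 21.9 among those, and had the lowest value of that group for 10 of the 10 genes. These patterns were seen in the data and not tested.

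Among markers of other cells, Pln, the phospholamban gene of heart muscle, had 2152 ± 242 CPM in METTL3 hearts and 1364 ± 191 CPM in HFD+STZ hearts (log2 fold change 0.66, SE 0.18, SD with n = 4 each), and did not pass with edgeR (Benjamini-Hochberg adjusted p of 0.350), though DESeq2 and limma voom called it. The 10 cardiomyocyte markers and 8 fibroblast markers had 0 calls by edgeR in the 3 comparisons. DESeq2 called 3 cardiomyocyte markers in METTL3 over chow (Actc1, Pln and Ttn, all higher) and 0 fibroblast markers. In METTL3 over chow limma voom called 5 cardiomyocyte markers, the same 3 higher and Myh6 and Myl2 lower, and in METTL3 over HFD+STZ it called Pln higher and Myh6 lower. It called 5 fibroblast markers in HFD+STZ over chow (Dcn, Col1a1, Col1a2, Dpt and Ddr2, all lower). Of all genes, limma voom called 20.7% in METTL3 over chow, 2.66% in METTL3 over HFD+STZ and 13.1% in HFD+STZ over chow. DESeq2 called 10.2% of all genes in METTL3 over chow and 1.29% in METTL3 over HFD+STZ. These shares count both directions. The cardiomyocyte markers summed to 47029 to 51835 CPM in METTL3 hearts, 41640 to 60427 CPM in HFD+STZ hearts and 49896 to 53999 CPM in chow hearts. The fibroblast markers summed to 1216 to 1841 CPM in METTL3 hearts, 882 to 1998 CPM in HFD+STZ hearts and 1371 to 1719 CPM in chow hearts.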
